A study of Mus musculus with 4 samples.

Results

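The nuclear-encoded subunits of the mitochondrial respiratory chain and ATP synthase were examined in mouse sciatic nerve. Genes were chosen by symbol, as those named Nduf (followed by a, b, c, s or v and a number), Sdha to Sdhd, Uqcr, Cox4 to Cox8 or Atp5, without symbols marked as pseudogenes by -ps. This gave 84 of 50593 genes (the members), of which 37 were placed in complex I by their names, 4 in complex II, 8 in complex III, 18 in complex IV and 17 in complex V. The names also caught a few proteins that are not subunits of the complex they are named for, and these are pointed out where they are described.

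RNA was sequenced from sciatic nerve of 6-month-old mice of the strain 129S1/SvImJ, to compare a model of hereditary transthyretin amyloidosis with its control. Both groups were heterozygous for a deletion of Hsf1, the gene of heat shock factor 1, so neither was wild-type at that locus. HSF V30M mice carried in addition a transgene for human TTR V30M on a background null for endogenous Ttr, and HSF WT mice carried no transgene. The labels list 2 mice per group, the study's methods give n = 4 without saying whether this is per group, and the values used here are 1 FPKM (fragments per kilobase of transcript, scaled to depth) per gene and group.

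With 1 value per group there were no replicates to compare, no spread between mice could be given, and no difference below has a replicate check or a p-value. Mouse Ttr, which is null by design in HSF V30M, had an FPKM of 6.10 in nerves labelled HSF V30M and was listed at 0 in nerves labelled HSF WT. If these are reads of mouse Ttr, this goes against the labels. The values do not tell reads of the human transgene from reads of mouse Ttr. Every direction below is therefore that of nerves labelled HSF V30M against nerves labelled HSF WT. Hsf1 had an FPKM of 7.94 in nerves labelled HSF V30M and 15.0 in those labelled HSF WT, although both carry the same deletion. The low values of genes with a single transcript fell on multiples of a smallest step, the worth of 1 fragment. The search sought a pair of steps a set distance apart in each group, so some gap in depth was built in. On this estimate the libraries of nerves labelled HSF V30M were 1.17-fold apart in depth and those of nerves labelled HSF WT 1.35-fold. The FPKM of nerves labelled HSF V30M is given to hundredths only, so their steps are the less certain. The deeper library of nerves labelled HSF V30M was estimated as 1.23-fold deeper than the deeper library of nerves labelled HSF WT.

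The respiratory chain sits in the inner mitochondrial membrane. Complexes I and II pass electrons from NADH and succinate to ubiquinone, complex III passes them on to cytochrome c, and complex IV reduces oxygen, while the proton gradient built by complexes I, III and IV drives ATP synthesis by complex V. All complexes but complex II combine subunits encoded by the mitochondrial genome with those encoded in the nucleus, so subunit genes of both genomes have to be expressed together. In peripheral nerve, axons and Schwann cells both depend on mitochondrial function, and many inherited defects of mitochondrial proteins cause neuropathy.

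The members were highly expressed as a set and most differed little between the groups. Of the 84 genes, 80 had a mean FPKM of 1 or more and 73 a mean of at least 10. Their summed FPKM was 5745 in nerves labelled HSF V30M and 6053 in nerves labelled HSF WT, or 1.62% and 1.69% of the FPKM of all protein-coding nuclear genes. Differences were taken as log2((HSF V30M + 1) / (HSF WT + 1)), which understates the difference of low genes. Where a pair of FPKM values is given without labels, the first is of nerves labelled HSF V30M and the second of nerves labelled HSF WT, and a fold is the FPKM of the first over that of the second. In bulk nerve, fewer cells of a type and less RNA per cell cannot be told apart. On this scale 33 of the 80 members were higher in nerves labelled HSF V30M and 47 were lower, whereas among all 15620 genes with a mean FPKM of 1 or more the shares were 50.4% higher and 49.6% lower. The median of the members was -0.06 and that of all genes 0.00. Past 1.5-fold, 5 members (6.25%) were higher and 2 (2.50%) lower, against 8.22% higher and 8.44% lower of all genes. Among protein-coding genes alone the shares were 5.03% and 5.32%, and among the genes between the lower and upper quartile of the members' mean FPKM 6.54% and 4.58%. Of the 5 higher members, Cox4i2 reached a mean FPKM of 1 only through nerves labelled HSF V30M. Within 1.2-fold were 53 members (66.3%), against 55.8% of all genes and 60.6% of the genes between those quartiles.

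**Figure D1:**
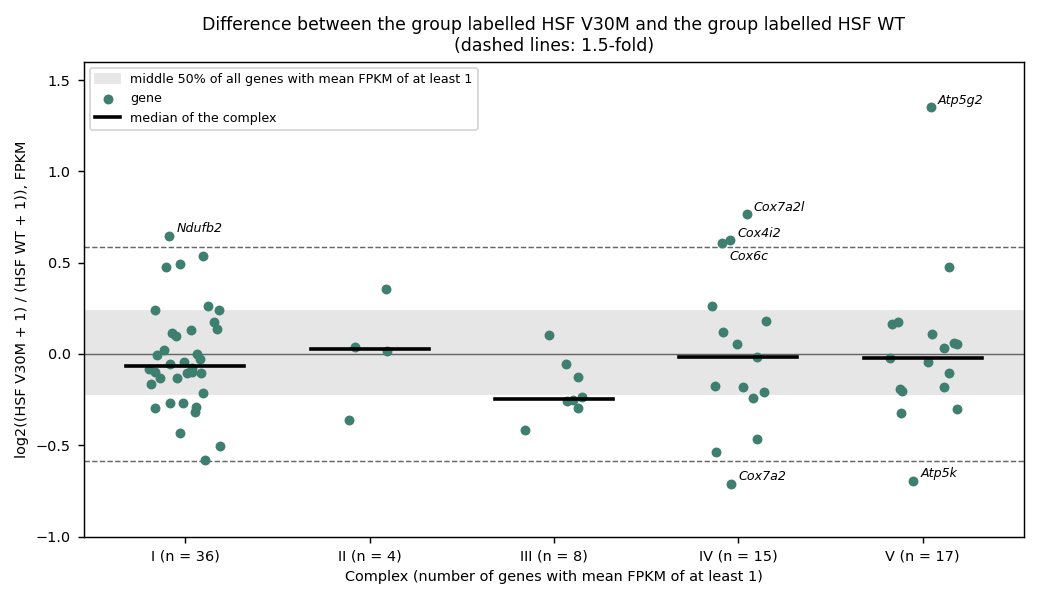
Log2 ratio of FPKM + 1 between nerves labelled HSF V30M and nerves labelled HSF WT for the 80 genes with a mean FPKM of 1 or more (points), by complex, with the median of each complex (bars), the middle 50% of all genes (grey band) and 1.5-fold (dashed lines). The medians are -0.06 in complex I, 0.03 in complex II, -0.25 in complex III, -0.02 in complex IV and -0.02 in complex V, and 7 named genes lie past 1.5-fold.

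The genes with the largest differences came from complexes I, IV and V, with 5 genes higher and 2 lower in nerves labelled HSF V30M. Atp5g2 (ENSMUSG00000062683, chromosome 15, 102662864 to 102672352, minus strand of GRCm38) encodes subunit c, the protein that forms the rotating ring of ATP synthase. Its FPKM was 34.1 in nerves labelled HSF V30M and 12.8 in nerves labelled HSF WT, standing for 178 to 480 and 47 to 147 fragments. The fold was 2.67, with a 95% interval from 1.95 to 3.80 (Clopper-Pearson, on the lowest fragment estimate), the largest difference of any member. Cox7a2l (ENSMUSG00000024248, chromosome 17, 83501918 to 83517330), whose protein helps to join complexes III and IV into supercomplexes, had 34.1 and 19.7 (fold 1.73, 95% interval 1.501 to 2.01). These were the only members whose interval lay wholly above 1.5. On the lower side, Cox7a2 (ENSMUSG00000032330, chromosome 9, 79755361 to 79759878), the ubiquitous isoform of subunit VIIa of complex IV, had an FPKM of 39.8 in nerves labelled HSF V30M and 65.8 in those labelled HSF WT (fold 0.605, 95% interval 0.528 to 0.693). Atp5k (ENSMUSG00000050856, chromosome 5, 108433244 to 108434448), which encodes subunit e in the membrane part of ATP synthase, had 37.6 and 61.4 (fold 0.611, 95% interval 0.420 to 0.875). All such intervals cover counting error only and say nothing of the spread between mice.

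The promoters of these 4 genes, the members with the largest differences in each direction, are printed from RefSeq (build GRCm38.p6), each from 250 bases before to 50 after the start of the gene in RefSeq. That start lies inside the GENCODE gene given above for each of the 4, and for Atp5g2 and Cox7a2l the whole stretch does. All lie on the minus strand and are written 5′ to 3′ along it, for Atp5g2 from chr15:102670998-102671297, Cox7a2l from chr17:83514284-83514583, Cox7a2 from chr9:79759804-79760103 and Atp5k from chr5:108434350-108434649. Capitals mark exact matches, on either strand, to the motifs searched in the members' promoters. Those tied to mitochondrial genes were CGCATGCG for NRF1, AAGATGGC for the factor YY1, CCGGAAG for the ETS factors, among them GABP, and AAGGTCA for the estrogen-related receptors (ERR). The general promoter motifs were GGGCGG, which is bound by SP1 and its relatives, CCAAT, the box bound by NFY, and the TATA box, searched as TATAAA.
Atp5g2: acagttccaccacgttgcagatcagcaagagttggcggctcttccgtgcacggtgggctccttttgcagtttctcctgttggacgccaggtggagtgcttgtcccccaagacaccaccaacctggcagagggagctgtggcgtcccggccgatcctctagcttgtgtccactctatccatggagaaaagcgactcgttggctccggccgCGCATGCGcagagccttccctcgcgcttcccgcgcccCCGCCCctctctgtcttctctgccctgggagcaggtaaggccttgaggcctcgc
Cox7a2l: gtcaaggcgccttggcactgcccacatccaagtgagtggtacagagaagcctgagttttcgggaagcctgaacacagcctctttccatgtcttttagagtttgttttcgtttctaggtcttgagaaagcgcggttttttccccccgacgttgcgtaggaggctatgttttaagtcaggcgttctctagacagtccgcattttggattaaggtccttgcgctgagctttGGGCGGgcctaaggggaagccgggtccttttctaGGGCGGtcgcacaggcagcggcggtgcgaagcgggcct
Cox7a2: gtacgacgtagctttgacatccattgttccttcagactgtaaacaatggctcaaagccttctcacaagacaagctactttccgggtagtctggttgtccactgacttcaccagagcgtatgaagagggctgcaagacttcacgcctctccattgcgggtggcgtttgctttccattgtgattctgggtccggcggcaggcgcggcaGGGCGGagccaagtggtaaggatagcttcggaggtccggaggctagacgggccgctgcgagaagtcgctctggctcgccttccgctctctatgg
Atp5k: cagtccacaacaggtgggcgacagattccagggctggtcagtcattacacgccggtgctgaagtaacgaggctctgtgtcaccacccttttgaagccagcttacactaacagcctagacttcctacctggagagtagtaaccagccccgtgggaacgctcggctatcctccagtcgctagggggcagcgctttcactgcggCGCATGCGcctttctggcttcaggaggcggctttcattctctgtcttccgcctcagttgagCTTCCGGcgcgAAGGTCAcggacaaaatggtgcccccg
Atp5g2 and Atp5k, which differed in opposite directions, both held the NRF1 motif. Atp5g2 also held the SP1 motif, and Atp5k the ETS and ERR motifs. The promoters of Cox7a2l, higher in nerves labelled HSF V30M, and of Cox7a2, lower there, held the SP1 motif alone.

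The other members past 1.5-fold were all higher in nerves labelled HSF V30M. Ndufb2, an accessory subunit in the membrane arm of complex I, had an FPKM of 32.9 against 20.6 (fold 1.59, 95% interval 1.22 to 2.09). Its locus in the data was shared by 6 genes, among them Braf, which overlaps it on the opposite strand and had an FPKM of 18.0 and 16.9. Adck2, in the same locus and on the same strand but not overlapping Ndufb2, was also higher, at 14.5 and 9.56. Gm42420, which overlaps Ndufb2 on the same strand, was listed at 0 in both groups. Cox6c, one of the small subunits that surround the catalytic core of complex IV, had 34.0 and 22.0 (fold 1.54, 95% interval 1.22 to 1.97). It is overlapped by Vps13b on the opposite strand, with an FPKM of 8.95 and 9.24. Whether counting used strand is not given in the sources used here, so reads of such overlapping genes cannot be told apart. Cox4i2, the isoform of subunit IV known from lung and from hypoxic cells, was near the floor of detection, at 1.57 and 0.671. These values stand for 18 to 21 and 5 to 7 fragments, and the interval of the fold, from 0.857 to 8.39, holds 1. Cox7b at a log2 ratio of -0.54 and Ndufa4l2 at 0.53 lay near the limit and inside it. Calls were made on the scale of FPKM + 1, and on FPKM itself Ndufa4l2, at a fold of 1.53, would have passed 1.5-fold.

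Among all 80 members, the counting interval of the fold lay wholly above 1 in 12 (15.0%), wholly below 1 in 22 (27.5%) and on both sides of 1 in 46 (57.5%). Among 12696 protein-coding genes with a mean FPKM of 1 or more these shares were 18.9%, 17.9% and 63.2%, and among the 2103 of them between the lower and upper quartile of the members' mean FPKM 26.4%, 23.1% and 50.5%. On the lowest fragment estimates, the interval thus held 1 for most members, before any spread between mice is considered. Higher fragment estimates would give narrower intervals. The subunit genes are short, with a median longest coding transcript of 863 bases against 3156 for protein-coding genes with a mean FPKM of 1 or more, so each FPKM rests on fewer fragments than the same FPKM of a longer gene.

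**Figure D2:**
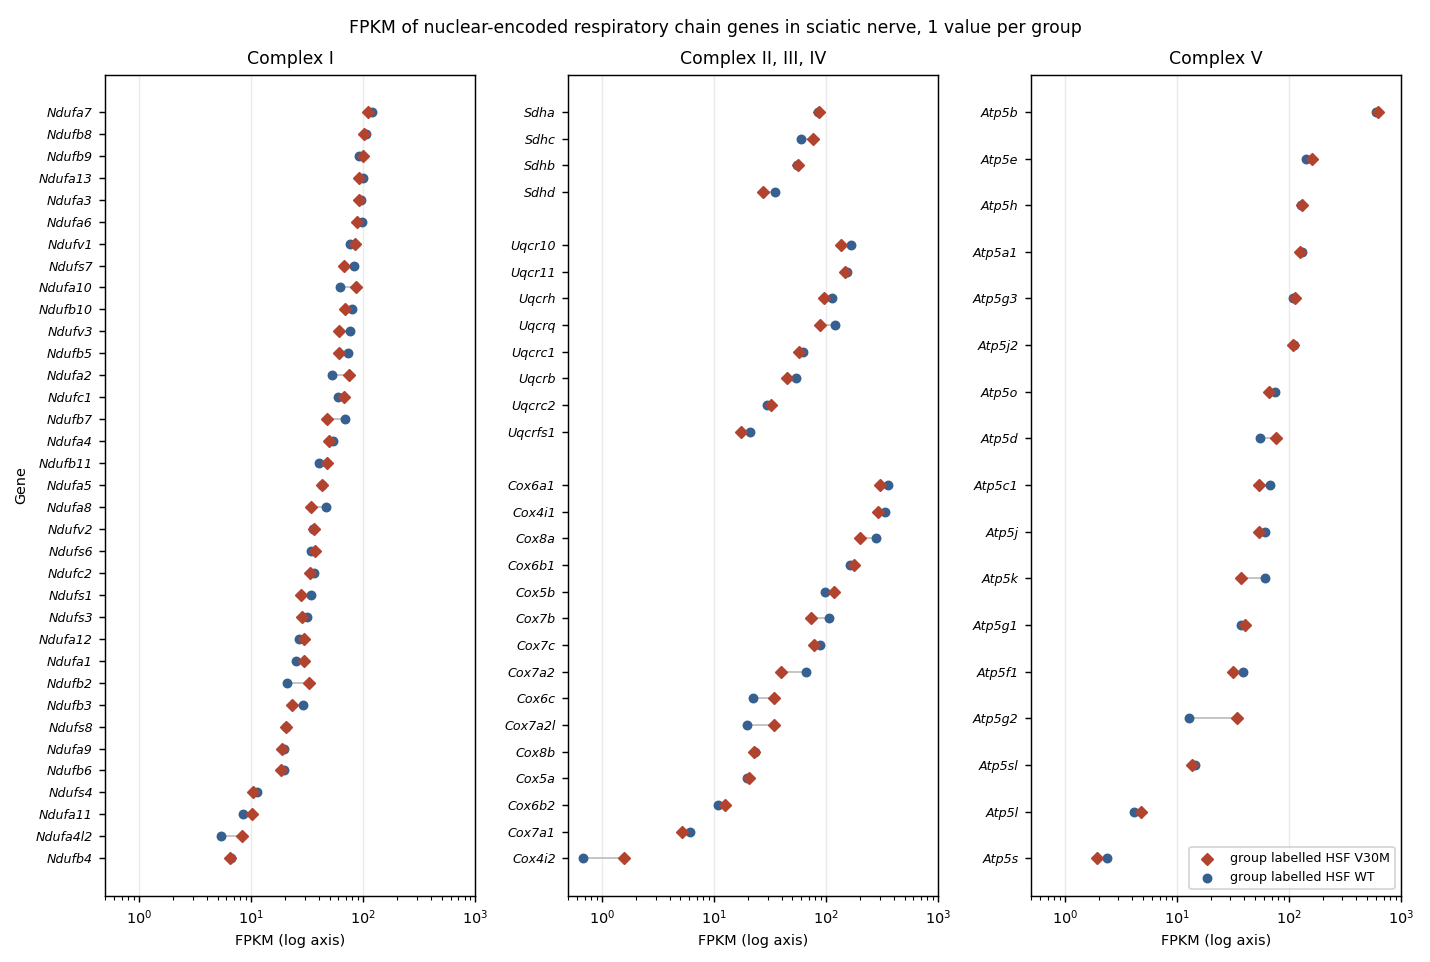
FPKM (log axis) of 79 of the 80 genes with a mean FPKM of 1 or more in nerves labelled HSF V30M (diamonds) and nerves labelled HSF WT (circles), ordered by mean within each complex. Levels run from about 1 for Cox4i2 to 624 and 598 for Atp5b, and most pairs of symbols nearly overlap.

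Complex I oxidises NADH and is the largest of the complexes. Of its 36 measured genes, 14 were higher and 22 lower in nerves labelled HSF V30M, with a median log2 ratio of -0.06 and with 24 genes within 1.2-fold. The most abundant was Ndufa7, an accessory subunit of the matrix arm, at 110 and 118 FPKM. Among the core subunits of the arm that takes electrons from NADH, Ndufv1, which binds NADH and flavin, had 83.8 and 76.1. Its partner Ndufv2 had 36.3 and 35.7, while Ndufs1, which carries a chain of iron-sulphur clusters, had 27.9 and 33.9. In the arm that passes electrons on to quinone, Ndufs7, which holds the last iron-sulphur cluster, had 66.8 and 82.2. Ndufs3 had 28.2 and 31.7, and Ndufs8 was level at 20.2 in both groups.

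The accessory subunits of complex I, which surround the core and are needed for its assembly and stability, spread to both sides. In the matrix arm 3 of 9 were higher, with a median of -0.08, and in the membrane arm 7 of 18, with a median of -0.05. On the higher side, Ndufa10 had 86.6 in nerves labelled HSF V30M and 61.9 in those labelled HSF WT (fold 1.40, 95% interval 1.14 to 1.72). Ndufa2 had 74.4 and 52.6 (fold 1.41, 95% interval 1.23 to 1.64). On the lower side, Ndufb7 had 47.7 and 68.1 (fold 0.701, 95% interval 0.614 to 0.803) and Ndufa8 had 34.3 and 46.7 (fold 0.734, 95% interval 0.646 to 0.835). The supernumerary subunit Ndufs4, loss of which causes a form of Leigh syndrome, had 10.4 and 11.2. Ndufa4, named for complex I but found in complex IV, and its paralogue Ndufa4l2 are counted here by name, and without them 13 of 34 genes were higher with the median at -0.06.

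Complex II, succinate dehydrogenase, is also an enzyme of the citric acid cycle and has only nuclear-encoded subunits. The catalytic subunits were level, Sdha with its flavin at 86.0 and 83.8 FPKM and the iron-sulphur subunit Sdhb at 56.1 and 55.4. The membrane anchors differed in opposite directions. Sdhc had 76.2 in nerves labelled HSF V30M and 59.3 in those labelled HSF WT (fold 1.29), and its counting interval, from 0.988 to 1.69, held 1. Sdhd had 27.3 and 35.3 (fold 0.773, 95% interval 0.688 to 0.868). Members were spread over the genome, with at most 9 on a chromosome (chromosome 7), and few lay close to each other. Atp5d, Ndufs7 and Uqcr11 on chromosome 10 formed a run with gaps of 103302 and 146202 bases, with log2 ratios of 0.48, -0.29 and -0.06.

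Complex III stood lowest of the complexes, with 7 of its 8 genes lower in nerves labelled HSF V30M and a median log2 ratio of -0.25, although none was past 1.5-fold. Under the other scalings tried the median ran from -0.25 to -0.23. All 5 small accessory subunits were lower. Uqcr10, the most abundant gene of the complex by mean, had 135 and 166 FPKM (fold 0.812, 95% interval 0.726 to 0.907). Uqcrq, which binds near cytochrome b, had 88.8 and 119 (fold 0.747, 95% interval 0.648 to 0.864), the lowest ratio of the complex. Uqcrh, the hinge protein beside cytochrome c1, had 95.8 and 113, and Uqcrb had 45.0 and 53.9. Uqcr11 was nearly level at 147 and 153. The Rieske iron-sulphur protein Uqcrfs1, which carries electrons between the quinone site and cytochrome c1, had 17.2 and 20.7 (fold 0.830, 95% interval 0.722 to 0.957). Of the core proteins that face the matrix, Uqcrc1 had 56.8 and 62.2. Uqcrc2, at 31.9 and 29.7, was the only higher gene, and its interval held 1.

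Complex IV, cytochrome c oxidase, had 15 measured genes, of which 7 were higher and 8 lower in nerves labelled HSF V30M, with a median of -0.02. Among the 10 ubiquitous subunits 4 were higher and 6 lower, and their median was -0.19. The most abundant of these were lower, Cox6a1 at 302 and 358 FPKM (fold 0.844, 95% interval 0.796 to 0.896) and Cox4i1 at 292 and 337 (fold 0.866, 95% interval 0.808 to 0.930). The locus of Cox4i1 in the data was shared by 210 genes. Cox8a had 202 and 279 (fold 0.723, 95% interval 0.673 to 0.777). Cox7b had 73.4 and 107 (fold 0.687, 95% interval 0.635 to 0.742). Higher values were seen for Cox5b, which binds zinc on the matrix side, at 117 and 97.7, and for Cox6b1, which lies on the side of the intermembrane space, at 176 and 162. Cox5a had 20.3 and 19.5, and Cox7c had 78.0 and 88.3. Cox7a2l is counted by name, though its protein acts in supercomplexes, and without it 6 of 14 genes were higher and the median was -0.10.

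Complex V, ATP synthase, held the most abundant member of all. Atp5b, the catalytic beta subunit, had an FPKM of 624 in nerves labelled HSF V30M and 598 in nerves labelled HSF WT, 10.9% and 9.88% of the members' sum. Its fold was 1.04 with a counting interval from 1.02 to 1.06. The alpha subunit Atp5a1, which alternates with beta in the head of the enzyme, had 126 and 130. Of the central stalk, Atp5d was higher, at 76.5 and 54.6 (fold 1.40, 95% interval 1.26 to 1.56), Atp5e had 161 and 143, and Atp5c1 was lower, at 54.1 and 67.9 (fold 0.796, 95% interval 0.700 to 0.906). The peripheral stalk, which holds the head still while the ring turns, had 3 of 4 genes lower and a median of -0.19. These were Atp5f1 at 31.6 and 39.2, Atp5j at 54.2 and 61.6 and Atp5o at 65.7 and 75.3. The fourth, Atp5h, had 131 and 128. In the membrane part beside Atp5k, Atp5j2 had 109 and 110. Over the whole complex 8 of 17 genes were higher and the median was -0.02. Atp5s, at 1.94 and 2.38, and Atp5sl, at 13.5 and 14.6, are named for this complex but are not subunits of it. Without them 8 of 15 were higher and the median was 0.03.

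Several subunits come as isoforms encoded by separate genes, and each isoform's share of the summed FPKM of its family was compared. The c-ring is made from 3 genes whose mature proteins are identical. Atp5g3 held 60.5% of the c-ring FPKM in nerves labelled HSF V30M and 68.7% in those labelled HSF WT, and Atp5g1 held 21.3% and 23.3%. Atp5g2 held 18.1% and 8.01%. The FPKM of Atp5g3, 114 and 109, and of Atp5g1, 40.1 and 37.0, were nearly level, so the sum of the ring genes, 188 against 159, differed mostly by Atp5g2. Ndufa4l2, a paralogue of Ndufa4 that is induced by hypoxia, had 8.19 and 5.35 FPKM (fold 1.53, 95% interval 1.13 to 2.13) and 14.3% and 9.01% of the pair. Cox4i2 was 0.534% and 0.198% of the Cox4 family.

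Of the isoforms of muscle and brown fat, Cox8b had 22.7 FPKM in nerves labelled HSF V30M and 23.0 in those labelled HSF WT (fold 0.988, 95% interval 0.695 to 1.42). Cox7a1 had 5.20 and 6.04, and its interval, from 0.421 to 1.65, held 1. Their shares of the family were larger in nerves labelled HSF V30M, 10.1% against 7.62% for Cox8b and 11.6% against 8.41% for Cox7a1, alongside lower values of the ubiquitous Cox8a and Cox7a2. Cox6a2 was at 0.10 and 0.505, about 1 fragment against 4 to 5, and a difference was not detectable. Skeletal muscle markers with a mean FPKM of 1 or more were lower in 13 of 14 genes, 11 of them past 1.5-fold, with a median log2 ratio of -1.28. The summed FPKM of these 14 was 72.9 and 225, with Ckm, muscle creatine kinase, the most abundant at 8.97 and 43.8. Myh4 had the lowest ratio, at 3.74 and 21.1, and of the 14 Tnnt1 alone was higher, at 2.69 and 2.11. Of 8 brown adipocyte markers 4 had a mean FPKM of 1 or more, 1 of them higher, and the sum of these 4 was 23.0 and 25.3. Prdm16 was the most abundant at 17.2 and 17.9, Ppara had 2.85 and 2.11, Dio2 had 1.26 and 3.34, and the defining gene Ucp1 was near 0, at 0.20 and 0.0451. The part of muscle or fat cells in the values of the members was not tested.

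The germ line isoforms Cox7b2 and Cox8c were listed at 0 in both groups. For Cox7b2, 3 fragments would have given an FPKM of 0.404 in nerves labelled HSF V30M and 0.568 in those labelled HSF WT, and for Cox8c 0.536 and 0.753, but a 0 in these values need not mean a level below that, since 6 mitochondrially encoded subunits were also listed at 0 in both groups. Cox6b2, known from testis, was present, at 12.4 and 10.8 FPKM, 6.60% and 6.29% of the Cox6b family.

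**Figure D3:**
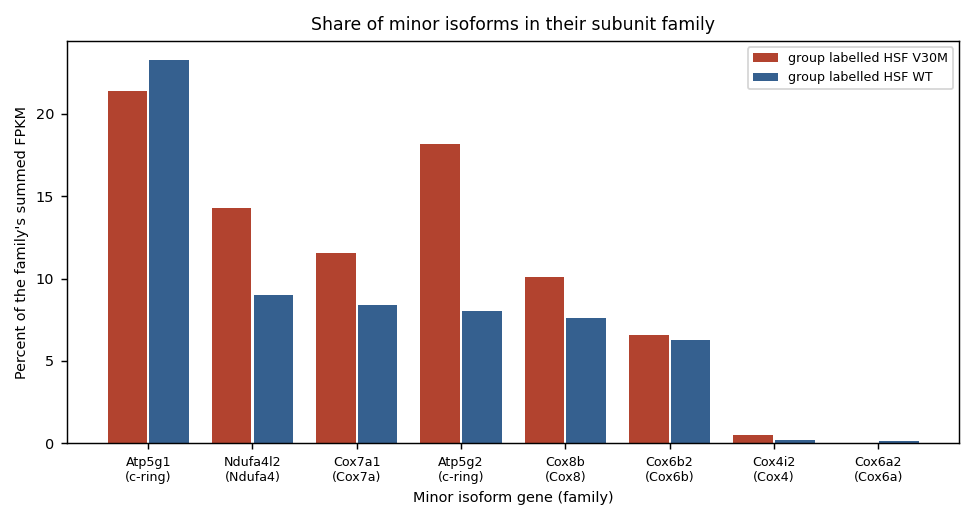
Share of the summed FPKM of a subunit family held by each minor isoform in nerves labelled HSF V30M and nerves labelled HSF WT (bars, 1 value per group). Atp5g2 shows the widest gap, 18.1% against 8.01% of the c-ring genes, while Cox6b2 holds 6.60% and 6.29%.

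Subunit genes of the respiratory chain have many processed pseudogenes, and reads from a near-identical copy cannot be told from those of the gene. A search of the members' coding sequences against all annotated transcripts found 37 copies with at least 95% identity over at least 80% of the coding sequence, belonging to 20 members. Of these copies 14 were listed at 0 in both groups. The clearest case was Ndufs5, an accessory subunit of complex I. It had an FPKM of only 0.55 in nerves labelled HSF V30M and 1.18 in nerves labelled HSF WT, which left it under the minimum mean of 1. Its processed pseudogene BC002163 on chromosome 16, identical over 99.4% of the aligned bases, had 118 and 133. The copy thus held 99.5% and 99.1% of the summed FPKM, and the log2 ratio of their sum was -0.18. The low FPKM of Ndufs5 is therefore uncertain as a level of the gene.

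Atp5l, which encodes subunit g of ATP synthase, had 8 copies and a low FPKM of 4.76 and 4.15. Its copies together had 1.71 and 5.71, mainly Gm4045 at 0.82 and 4.30. The log2 ratio was 0.16 for Atp5l alone and -0.54 together with the copies, so the direction differed between them. Of the members past 1.5-fold, the copies of Atp5g2, Cox6c and Atp5k were all listed at 0, and Cox7a2l, Cox7a2, Ndufb2 and Cox4i2 had none. In the remaining members whose copies had values, the copies held at most 12.4% of the sum, in Ndufa12. The copy of Ndufb3 had no FPKM in the data.

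The members' promoters were searched for the motifs listed above, none of which lies inside another. RefSeq promoters of 300 bases were found for 69 of the 84 members. The NRF1 motif, of the factor known as nuclear respiratory factor 1, was held by 9 members (13.0%), against 2.07% of the 27025 genes in the promoter set and 4.12% of the 10477 of them with a mean FPKM of 1 or more. The YY1 motif was held by 11 members (15.9%), against 3.19% and 5.10%. The ERR motif was held by 8 members (11.6%), against 5.38% and 3.82%. The ETS motif was held by 16 members (23.2%), nearer to the 19.2% of expressed genes than to the 9.93% of all genes. The SP1 motif was in 40.6% of members, in 38.2% of all genes and in 68.1% of expressed genes. NFY was in 44.9% of members, in 41.1% of all genes and in 42.5% of expressed genes, and the TATA box in 10.1%, 15.7% and 8.91%. A match describes the letters and does not show that a factor binds there.

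Median ratios of members with and without a motif lay close together, with the widest gap for the ERR motif. The median log2 ratio was -0.13 in the 9 members with the NRF1 motif and -0.06 in the 58 without it. It was -0.12 in 16 and -0.05 in 51 for ETS, and -0.08 against -0.07 for YY1. For the ERR motif it was 0.05 in 7 members and -0.09 in 60. With the YY1 motif 2 of 11 members were higher, against 24 of 56 without it, and for ERR 4 of 7 against 22 of 60. The median GC content of the members' promoters was 57.3%, between the 52.7% of all genes and the 61.0% of expressed genes.

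**Figure D4:**
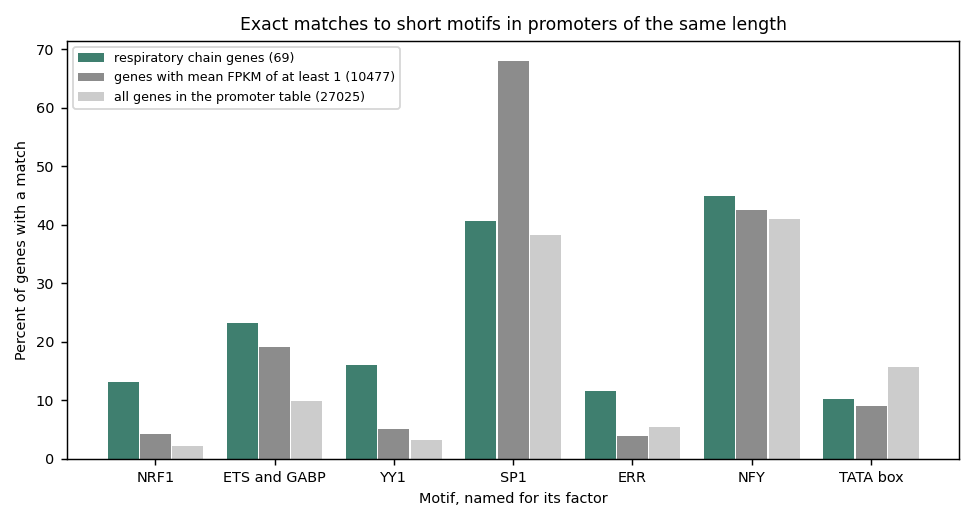
Percent of genes whose promoter holds an exact match to each motif on either strand, for 69 respiratory chain genes, 10477 genes with a mean FPKM of 1 or more and all 27025 genes with a promoter. NRF1 (13.0%, 4.12% and 2.07%) and YY1 (15.9%, 5.10% and 3.19%) matches are more frequent among the respiratory chain genes, and SP1 matches (40.6%, 68.1% and 38.2%) are less frequent than among expressed genes.

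The factors known to drive expression of these genes differed little between the groups. Of 15 regulators of mitochondrial biogenesis with a mean FPKM of 1 or more, 6 were higher and 9 lower in nerves labelled HSF V30M. None was past 1.5-fold, and the median was -0.11, or 0.01 with a minimum mean FPKM of 5. The coactivators Ppargc1a, Ppargc1b and Pprc1 had FPKM values of 2.52, 2.62 and 19.9 against 2.83, 3.39 and 22.3. Nrf1 had 14.2 and 14.8, Esrra had 14.5 and 15.7, and Yy1 had 8.23 and 7.12. Of the subunits of GABP, Gabpa had 18.2 and 15.9, Gabpb2 had 10.3 and 11.5, and Gabpb1, with the highest ratio, had 8.06 and 5.43. Among the genes that copy and transcribe mitochondrial DNA, the polymerase gene Polg was the most abundant, at 32.8 and 26.3, and Tfam had 7.35 and 6.88. Polrmt had 8.79 and 7.14, Twnk had 5.54 and 6.76, Tfb1m had 3.86 and 4.41, and Tfb2m, with the lowest ratio, had 5.27 and 6.78.

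The partners encoded by mitochondrial DNA mostly had lower values in nerves labelled HSF V30M. Of 13 such subunits 6 were listed at 0 in both groups, and 6 of the other 7 were lower past 1.5-fold, with a median of -1.21. The exception was mt-Co1, at 1692 and 1682 FPKM. Their sum was 3869 and 6175, with mt-Nd2, at 209 and 584, the lowest ratio.

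Subunits and carriers outside the naming rule were near level, with 4 of 6 higher and a median of 0.05. Atpif1, the inhibitor of ATP synthase, was the most abundant at 89.0 and 73.2, and cytochrome c1, Cyc1, had 36.8 and 40.7. The small ATP synthase protein encoded by 2010107E04Rik, added to this list after its value was seen, had 51.2 and 29.2 and was past 1.5-fold.

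Genes that build and feed the chain were examined beside it. Among assembly factors, 7 of 15 were higher for complex I, 1 of 3 for complex II, 1 of 6 for complex III, 8 of 23 for complex IV and 1 of 3 for complex V. Their medians were -0.03, -0.15, -0.14, -0.08 and -0.13, and with a minimum mean FPKM of 5 those of complexes I, II and V moved to -0.19, -0.01 and -0.26. For complex I, Ndufaf8 was the most abundant at 24.7 and 17.0, Ndufaf6 had the highest ratio, at 2.68 and 1.37, and Acad9 the lowest, at 15.6 and 25.8. For complex IV, the copper chaperone Cox17 was the most abundant at 78.5 and 91.4, Pet100 was higher at 21.6 and 11.1, and Coa4 was lower at 3.49 and 6.89. For complex III, Uqcc2 had 70.0 and 80.8, Uqcc1 had 26.5 and 22.0, and Lyrm7 had 1.23 and 2.40. The factors of complex II, Sdhaf4 at 6.25 and 5.64 and Sdhaf1 at 2.49 and 3.06, and of complex V, Atpaf2 at 11.6 and 15.5 and Atpaf1 at 1.78 and 1.53, were low.

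Of 78 mitochondrial ribosomal protein genes, which serve to translate the mitochondrially encoded subunits, 22 were higher and 56 lower, with a median of -0.12. Mrps21 was the most abundant and had the lowest ratio, at 40.9 and 76.0, and Mrpl48 had the highest, at 15.9 and 6.36. In the citric acid cycle and pyruvate dehydrogenase 6 of 17 were higher and the median was -0.16. Idh3a had 22.1 and 15.7, and Suclg1 had 46.4 and 86.6. For the membrane and import genes 4 of 19 were higher and the median was -0.12. The adenine nucleotide carrier Slc25a4 was level at 120 and 121, Phb2 had 67.1 and 54.3, and Timm23 had 15.2 and 25.4.

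**Figure D5:**
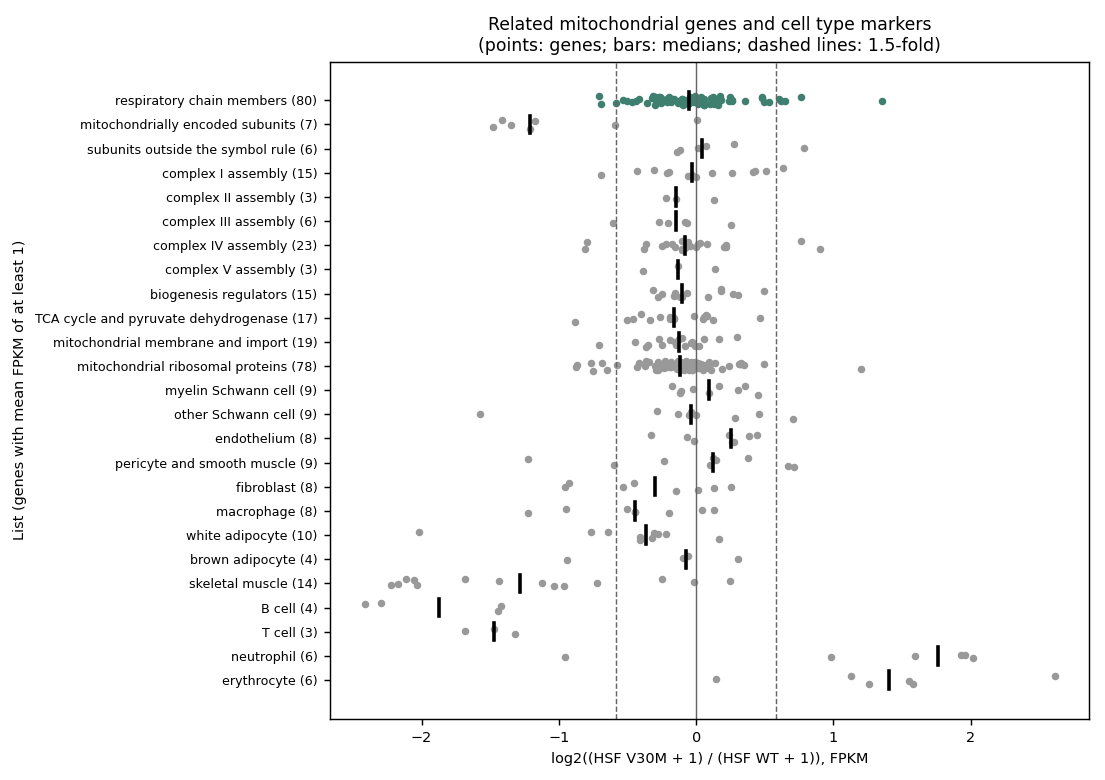
Log2 ratio of FPKM + 1 between nerves labelled HSF V30M and nerves labelled HSF WT for the respiratory chain genes, related mitochondrial genes and cell type markers with a mean FPKM of 1 or more (points), with medians (bars) and 1.5-fold (dashed lines). The respiratory chain genes center on -0.06, the mitochondrially encoded subunits on -1.21, skeletal muscle markers on -1.28 and neutrophil markers on 1.76.

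The nerve samples are a mix of cells. Myelin genes of Schwann cells, which define the tissue, were abundant and near level, with 5 of 9 higher and a median of 0.10. Their sum was 12750 and 11291, with Egr2 at 102 and 74.2 and Mag at 85.7 and 96.8. Other Schwann cell genes had 4 of 9 higher and a median of -0.04, with a sum of 609 and 476. S100b was the most abundant and had the highest ratio, at 328 and 201, and Gfap had the lowest, at 2.28 and 8.77. White adipocyte markers, from a cell type of the tissue around the nerve, were lower in 9 of 10 genes with a median of -0.36. Their sum was 3602 and 4775, with Cfd at 1188 and 1467, Pck1 at 67.7 and 60.2 and Lep at 7.47 and 33.4.

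Among vascular and connective tissue cells, endothelial markers had 5 of 8 higher, a median of 0.25 and a sum of 248 and 223, with Egfl7 at 95.5 and 78.6, Esam at 31.8 and 23.1 and Pecam1 at 44.9 and 56.5. Pericyte and smooth muscle markers had 6 of 9 higher, a median of 0.12 and a sum of 774 and 1373, with Tagln at 472 and 1102 and Rgs5 at 32.7 and 19.5. Fibroblast markers had 3 of 8 higher, a median of -0.30 and a sum of 2282 and 2415, with Dcn at 1331 and 1320, Col1a1 at 181 and 152 and Pi16 at 42.4 and 83.0. Of blood and immune cells, all 6 erythrocyte genes were higher, with a median of 1.40 and a sum of 291 and 101, Hbb-bs having 111 and 37.1, Hbb-bt 17.6 and 2.04 and Alas2 5.71 and 5.08. Neutrophil markers were higher in 5 of the 6 with a mean FPKM of 1 or more, with a median of 1.76 and a sum of 104 and 30.8, S100a9 having 59.0 and 13.8 and Csf3r 2.63 and 6.05. Macrophage markers were lower in 6 of 8, with a median of -0.45 and a sum of 403 and 604, Lyz2 having 194 and 266, Cd163 14.4 and 13.0 and C1qb 58.7 and 139. The B and T cell markers with a mean FPKM of 1 or more reached it through nerves labelled HSF WT alone, so all listed genes are counted here. B cell markers were lower in all 6, with a sum of 2.69 and 22.8 and a median of -1.43, Cd79a having 0.65 and 7.09, Cd79b 0.53 and 7.16 and Pax5 0.44 and 2.85. T cell markers were lower in 5 of 6, with a sum of 2.40 and 11.3 and a median of -0.93, Cd4 having 0.52 and 3.88, Cd3e 0.32 and 2.29 and Cd3d 0.51 and 0.486. The part of these cell types in the values of the respiratory chain genes was not tested.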

How the data were processed

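The authors' processing notes name STAR, Cufflinks and Cuffdiff with no version, and the reads were aligned to GRCm38. The FPKM values were deposited by the authors as 1 Cuffdiff estimate per gene and group, with decimal commas. The authors' log2 fold change, test statistic, p-value, q-value and significance call are also in the deposited table and were not used. From FPKM, log2((HSF V30M + 1) / (HSF WT + 1)) was computed with a pseudocount of 1, a minimum mean FPKM of 1 and a fold of 1.5, leaving out 23 genes whose alignments were too many to be estimated. No test was made. The members and the gene lists were chosen with earlier results of these data known.

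The worth of 1 fragment came from genes with 1 transcript that shared their locus with no other gene, the effective length being the transcript length less 200 bases. It was 0.0392 and 0.0461 in HSF V30M, where 95.1% of 411 low values were whole within 5%, and 0.0481 and 0.0647 in HSF WT, where 98.1% of 1550 were whole within 2%. Fragment numbers run from the shortest coding transcript of at least 250 bases to the longest. Annotation was GENCODE M21, which lacks 224 of the gene identifiers. Copies were found with BLASTN of BLAST+ 2.17.0. Motifs were exact matches on either strand, and a gene with several promoters held a motif when any did. Named were the most abundant member, the highest and the lowest ratio of each complex and list, members past 1.5-fold, isoforms, members at 0, named proteins that are not subunits and all regulators. Other members were named after their values were seen, to complete each complex. 3 genes that these rules would name are not reported here. The software was Python 3.11.15 with matplotlib 3.10.9, scipy 1.17.1, pandas 2.3.3 and numpy 2.4.6. The calls were tested on simulated data, and so was the fragment step at settings near those of HSF WT. The fragment step of HSF V30M was not tested in this way. Isoform proteins were not analysed here.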

Additional observations from a re-analysis of the deposited data

How the results depend on the processing

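The alternatives were a pseudocount of 0.1, a minimum mean FPKM of 5 or none, median-of-ratios scaling, an equal sum over protein-coding genes, other folds, other backgrounds and subsets of the members. The members' median log2 ratio ran from -0.07 to -0.04, and the median of each complex kept its sign under both scalings. Past 1.2-fold, 10 members were higher and 17 lower in the group labelled HSF V30M (22.6% and 21.6% of all genes), and past 2-fold 1 and 0 (3.98% and 3.94%). Among the 48 members alone in their locus, 19 were higher and 29 lower (50.4% and 49.6% of all genes). Of these 48, 2 were higher and 2 lower past 1.5-fold (8.22% and 8.44% of all genes). Members without near-identical copies were an alternative chosen after seeing the data. Among these 61, 3 were higher and 1 lower past 1.5-fold (8.22% and 8.44% of all genes). These counts move by construction, with the size of the fold or the number of members. With a pseudocount of 0.1, 6 members were higher and 3 lower past 1.5-fold (10.9% and 10.8% of all genes), Cox4i2 moving to 1.12, and with a minimum mean of 5, which leaves out Cox4i2, 4 and 2 of 77 (7.17% and 6.33%). Without tissue isoforms and proteins that are not subunits, the median of complex V was 0.03 and that of complex IV -0.18. With a minimum mean of 5 the median of the biogenesis regulators was 0.01. Of the other values 565 moved little and 17 moved more, mostly marker lists with low genes. No paired analysis was possible because mice 1 and 2 of each group in the labels share 1 FPKM per gene, and for the same reason no mouse could be left out. Depth limits the low members, among them Cox4i2, Cox6a2, Ndufs5 and Atp5s.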
